A study of Mus musculus with 6 samples.

Results

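A set of 7 genes that mark the atria or the ventricles of the heart was followed through the reprogramming of mouse tail-tip skin cells: Nppa, Nppb, Sln, Myl2, Myl3, Myl4 and Myl7. They were chosen by symbol, and each of the 7 matched 1 row among the 49315 genes of the count table. RNA was sequenced after poly(A) selection in 6 libraries of wild-type cells, 2 per group. Fibroblasts carried negative control lentiviral vectors (day 0), early cells carried CRISPR activation vectors (day 7), and late cells were taken from isolated colonies after CRISPR activation vectors and are named induced cardiac progenitors (day 22). CRISPR activation recruits transcriptional activators to a gene's own promoter with an inactive Cas9. The SAM form of it is named for all 3 groups, and the identity of its target genes is not given in the sources used here. Early replicate 2 is described as partially reprogrammed. The early and late columns were assigned by name, and no label says whether replicates are separate cultures or animals. The p-values therefore reflect the spread between these libraries, which may be technical.

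A working heart muscle cell carries a regulatory and an essential myosin light chain on each myosin head. The atria use the pair encoded by Myl7 (regulatory) and Myl4 (essential), and the ventricles the pair encoded by Myl2 (regulatory) and Myl3 (essential). In the embryo, atrial genes such as Myl7 and Myl4 are also expressed in the ventricle, and Myl3 and Myl4 are used by some skeletal muscle as well. Nppa and Nppb encode the hormones ANP and BNP, which stretched heart muscle secretes to lower blood pressure and which are early markers of chamber muscle. Sln encodes sarcolipin, a small membrane protein that inhibits the calcium pump SERCA and in the mouse heart is mainly atrial.

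Promoter sequences are shown for 5 of the 7 genes, those with a window near a GENCODE start. The choice to show sequences was made after the values were seen. Nppb and Myl4 differed less between late replicate 2 and the other libraries than Nppa, Myl3 and Myl7 did. Any link between the sequences and these levels was not tested. Each is a 300-base window from 250 bases before to 50 bases after a transcript start, 5′ to 3′ on the gene's strand, from RefSeq on GRCm38.p6. Of the 7 genes, 6 had a window. The start sites of the 2 windows of Myl2 lie 8227 and 7762 bases from the nearest GENCODE start of that gene, and these are not shown. Capitals mark matches on either strand to motifs of transcription factors that act in heart muscle, and none of these matches overlap. For GATA factors the motif searched was AGATAA, where the first base could also be T and the last base also G. For the homeobox factor NKX2-5 it was TNAAGTG, with any base in the second place. For TBX5, a T-box factor of the atria and left ventricle, it was AGGTGT. For the M-CAT element, which TEAD factors bind, it was CATTCC. The CArG box of serum response factor and the MEF2 site were searched by their usual consensus.
Nppa: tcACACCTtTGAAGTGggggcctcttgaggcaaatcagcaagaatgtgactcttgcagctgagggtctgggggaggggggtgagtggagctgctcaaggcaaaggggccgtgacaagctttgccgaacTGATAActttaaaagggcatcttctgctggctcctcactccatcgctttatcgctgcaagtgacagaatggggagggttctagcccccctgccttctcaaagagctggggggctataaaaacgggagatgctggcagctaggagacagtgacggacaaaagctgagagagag
Nppb: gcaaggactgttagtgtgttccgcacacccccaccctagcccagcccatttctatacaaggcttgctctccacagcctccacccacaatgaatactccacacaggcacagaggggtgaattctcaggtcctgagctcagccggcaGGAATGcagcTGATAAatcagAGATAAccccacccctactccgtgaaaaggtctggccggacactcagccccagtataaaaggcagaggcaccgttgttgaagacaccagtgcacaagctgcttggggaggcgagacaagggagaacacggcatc
Myl3: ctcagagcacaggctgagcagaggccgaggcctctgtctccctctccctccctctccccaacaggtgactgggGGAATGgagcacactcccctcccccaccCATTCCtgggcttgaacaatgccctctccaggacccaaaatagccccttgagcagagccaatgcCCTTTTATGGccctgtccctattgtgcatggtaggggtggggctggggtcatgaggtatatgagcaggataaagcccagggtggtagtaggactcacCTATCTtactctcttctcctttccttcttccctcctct
Myl7: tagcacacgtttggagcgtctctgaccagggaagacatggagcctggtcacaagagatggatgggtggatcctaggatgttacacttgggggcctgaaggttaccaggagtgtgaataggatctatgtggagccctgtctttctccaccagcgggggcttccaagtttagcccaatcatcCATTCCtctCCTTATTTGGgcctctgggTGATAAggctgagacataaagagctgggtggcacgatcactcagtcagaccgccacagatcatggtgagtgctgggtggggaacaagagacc
Myl4: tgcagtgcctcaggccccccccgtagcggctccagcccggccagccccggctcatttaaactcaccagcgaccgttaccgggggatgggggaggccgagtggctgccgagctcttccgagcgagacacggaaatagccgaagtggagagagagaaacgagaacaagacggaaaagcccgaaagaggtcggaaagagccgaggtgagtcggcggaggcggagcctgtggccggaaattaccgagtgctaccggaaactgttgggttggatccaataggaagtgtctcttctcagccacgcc

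The Nppa window (chr4:148000472-148000771, plus strand) held a TBX5 match at -248 to -243, beside it an NKX2-5 match at -241 to -235, and a GATA match at -122 to -117, counted from the start site. The Nppb window (chr4:147985650-147985949, plus strand) held GATA matches at -95 to -90 and -84 to -79 beside an M-CAT match at -105 to -100. Its start site lies 112 bases from the nearest GENCODE start. The Myl7 window (chr11:5898733-5899032, minus strand) held M-CAT at -70 to -65, a CArG box at -61 to -52 and GATA at -42 to -37. The Myl3 window (chr9:110763428-110763727, plus strand) held M-CAT matches at -177 to -172 and -149 to -144, a CArG box at -85 to -76 and a GATA match at 13 to 18, with a start site 32 bases from the nearest GENCODE start. The Myl4 window (chr11:104550413-104550712, plus strand) held no match to these motifs. Its start site is the outermost GENCODE start of Myl4. Whether that start was the one in use in these libraries was not tested, so other Myl4 promoters are not covered. No MEF2 match was found in any of the 5. Among 32851 windows of the same length, a GATA match was present in 29.8%, M-CAT in 14.7%, TBX5 in 13.7%, NKX2-5 in 11.5%, MEF2 in 1.86% and a CArG box in 1.63%. A match is a description of the sequence and not evidence of binding.

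Total counts were between 20172874 and 40122999 per library, so that 3 counts corresponded to 0.0842 to 0.142 CPM (counts scaled to a common library size, with edgeR's TMM factors). The late libraries differed from each other more than the libraries of other groups did, with a Pearson r of 0.883 across 16688 genes in log2 CPM, against 0.939 for early and 0.978 for fibroblast libraries (genes are not independent replicates). Late replicate 1 correlated more with early replicate 1 (0.945) and early replicate 2 (0.922) than with late replicate 2. Mitochondrial transcripts were 10.3% of counts in late replicate 2 and 1.48% to 2.16% in the other 5 libraries. The part of this difference in the results was not tested, and the late libraries are given apart.

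The chamber genes were abundant in late replicate 2 alone. Summed over the 7 genes, CPM was 7.42 and 32.2 in the fibroblast libraries, 4.68 and 5.06 in the early libraries, 13.3 in late replicate 1 and 8944 in late replicate 2. They made up 0.794% of all counts of late replicate 2 and at most 0.00292% of any other library. In these bulk samples, fewer cells of a type and less RNA per cell cannot be told apart.

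**Figure D1:**
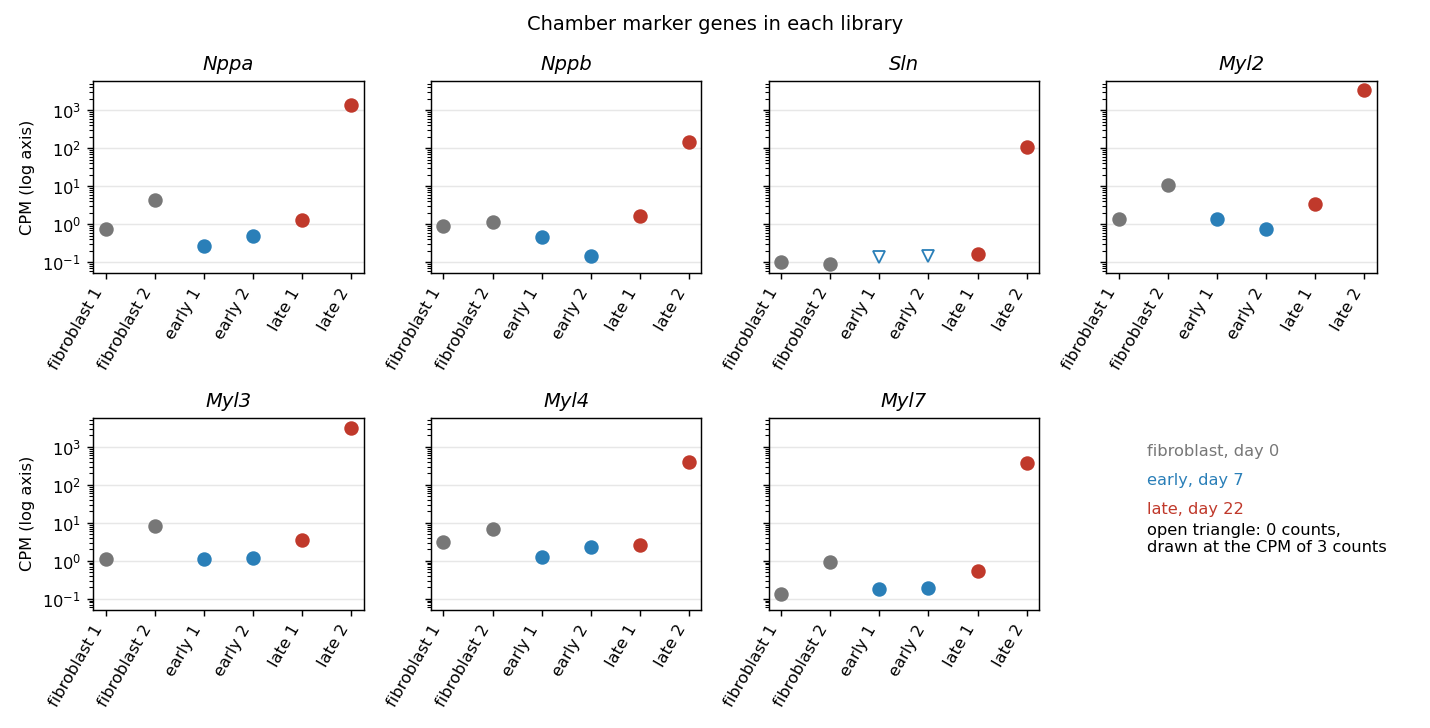
Each panel shows 1 chamber gene, with the 6 libraries on the horizontal axis in the order of days 0, 7 and 22 and CPM on a log axis. Each point is 1 library, and open triangles mark 0 counts at the CPM of 3 counts. In each panel late replicate 2 lies far above the other 5 libraries, as with Myl2 at 3450 CPM against at most 10.6 elsewhere.

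Nppa (ENSMUSG00000041616, chromosome 4, 148000722 to 148002079, GRCm38) stood at 0.739 and 4.35 CPM in the fibroblast libraries, 0.267 and 0.473 in early cells, 1.29 in late replicate 1 and 1352 in late replicate 2. Nppb (ENSMUSG00000029019, chromosome 4, 147985788 to 147987205), its neighbour 13516 bases away, stood at 0.907 and 1.15 CPM in the fibroblast libraries, 0.445 and 0.142 in early cells, 1.67 in late replicate 1 and 142 in late replicate 2. For Nppb both late libraries lay above both fibroblast libraries, while for Nppa late replicate 1 lay between the fibroblast libraries. Among the exon bases of Nppa, 61.5% overlap the antisense gene Gm13054. The strand setting of the counting is not given in the sources used here, and Gm13054 itself had at most 3 counts in each of the 5 other libraries and 242 in late replicate 2, where Nppa had 48155.

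Sln (ENSMUSG00000042045, chromosome 9, 53850164 to 53854560) had 3 and 3 counts in the fibroblast libraries, 0 and 0 in the early libraries, 4 in late replicate 1 and 3766 in late replicate 2. The zeros allow up to 0.134 and 0.142 CPM in the early libraries. At 106 CPM, late replicate 2 was at least 1536-fold higher than early cells, computed with 3 counts over both early libraries. Against fibroblasts, the pooled late libraries stood at a ratio of 672 (exact 95% interval 309 to 1833, counting error only), which rests on late replicate 2. Sln did not pass the filter on low counts. Tested over all 6 libraries without that filter, it was not called in late cells against fibroblasts (log2 fold change 9.05, edgeR adjusted p = 0.465) or against early cells (adjusted p = 0.845).

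Among the regulatory light chains, the ventricular Myl2 (ENSMUSG00000013936, chromosome 5, 122100951 to 122113472) stood at 1.34 and 10.6 CPM in the fibroblast libraries, 1.38 and 0.757 in early cells, 3.46 in late replicate 1 and 3450 in late replicate 2. The atrial Myl7 (ENSMUSG00000020469, chromosome 11, 5896637 to 5898782) stood at 0.134 and 0.941 CPM in the fibroblast libraries, 0.178 and 0.189 in early cells, 0.542 in late replicate 1 and 385 in late replicate 2. In both genes fibroblast replicate 2 lay above late replicate 1, and both early libraries lay below fibroblast replicate 2. Myl7 had only 4 counts in each of fibroblast replicate 1 and the early libraries, so differences among those 3 libraries were not detectable at this depth.

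Among the essential light chains, the ventricular Myl3 (ENSMUSG00000059741, chromosome 9, 110741861 to 110769798) stood at 1.11 and 8.41 CPM in the fibroblast libraries, 1.11 and 1.18 in early cells, 3.54 in late replicate 1 and 3111 in late replicate 2. The atrial Myl4 (ENSMUSG00000061086, chromosome 11, 104550663 to 104595753) stood at 3.09 and 6.68 CPM in the fibroblast libraries, 1.29 and 2.32 in early cells, 2.67 in late replicate 1 and 399 in late replicate 2. Of the exon bases of Myl3, 4.65% overlap Pth1r on the opposite strand, and Pth1r itself had 109 and 342 counts in fibroblasts, 5 and 335 in early cells and 184 and 331 in late cells, against 33 and 286, 25 and 25, and 85 and 110769 for Myl3. Whether Pth1r reads were counted for Myl3 was not tested. Myl4 was the only one of the 7 whose level in late replicate 1 lay below both fibroblast libraries. Its gap to fibroblast replicate 1 was small, at 64 against 92 counts with overlapping counting intervals.

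Levels of different genes can be set side by side per length, as CPM per kilobase of union exon. On that scale the order in late replicate 2 was Myl2 at 1769, Nppa at 1563, Myl3 at 1522, Myl7 at 653, Nppb at 182, Myl4 at 86.0 and Sln at 80.2. In late replicate 1 the order on the same scale was Nppb at 2.13, Myl2 at 1.77, Myl3 at 1.73, Nppa at 1.49, Myl7 at 0.918, Myl4 at 0.575 and Sln at 0.127. By value, Nppb thus stood first in late replicate 1 and behind Myl2, Nppa, Myl3 and Myl7 in late replicate 2. Each order has 1 library behind it and no test. In late replicate 1 the first places rest on 40 counts for Nppb, 83 for Myl2, 85 for Myl3 and 31 for Nppa. Their order was not set against counting error. The union length of Myl4, 4637 bases, includes exons of alternative transcripts and lowers its value per length. The value of Nppa carries the uncertainty of its exon overlap with Gm13054.

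The comparison of late cells with fibroblasts sets the libraries labelled as day 22 progenitors beside the starting cells. Both late libraries are labelled as colony isolates, and the cell make-up of late replicate 2, on which the late values rest, was not tested. All 6 tested genes had a higher fitted level in late cells, with log2 fold changes of 8.05 ± 3.004 for Nppa, 6.12 ± 2.01 for Nppb, 8.17 ± 3.08 for Myl2, 8.35 ± 3.05 for Myl3, 5.36 ± 2.09 for Myl4 and 8.45 ± 2.92 for Myl7 (SE, 2 libraries per group). None passed the test over all genes (edgeR adjusted p from 0.115 to 0.150), although 6 of 6 had an unadjusted p under 0.05, as did 32.5% of all genes tested. Of all genes tested, 1.42% were called in either direction, 0.641% higher and 0.779% lower. The median log2 fold change was 8.11 over the 6 genes and 0.11 over all genes tested. Nppb alone, 1 of 6, had each late library above each fibroblast library, where 35.7% of all genes tested did. None had both late libraries below, where 32.9% of all genes tested did.

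These fold changes rested on late replicate 2. Without it, the log2 fold change of Nppa was -0.99, of Myl2 -0.79, of Myl3 -0.43, of Myl4 -0.88 and of Myl7 -0.0075, and that of Nppb was 0.69 (edgeR adjusted p from 0.501 to 0.997). The fit without late replicate 1 leaves late replicate 2 as the 1 late library and assumes that it varies like the other groups. There the log2 fold changes of the 6 genes were 6.26 to 9.36. Sln, at 9.98, passed the low-count filter in that fit only through late replicate 2, so its value there is no separate evidence. DESeq2 on all 6 libraries called 6 of 6 higher (adjusted p from 0.000522 to 0.00391), where it called 28.1% of all genes tested in either direction and 14.8% higher. Over the alternatives, the adjusted p of the 6 genes ranged from 0.000522 to 0.997.

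**Figure D2:**
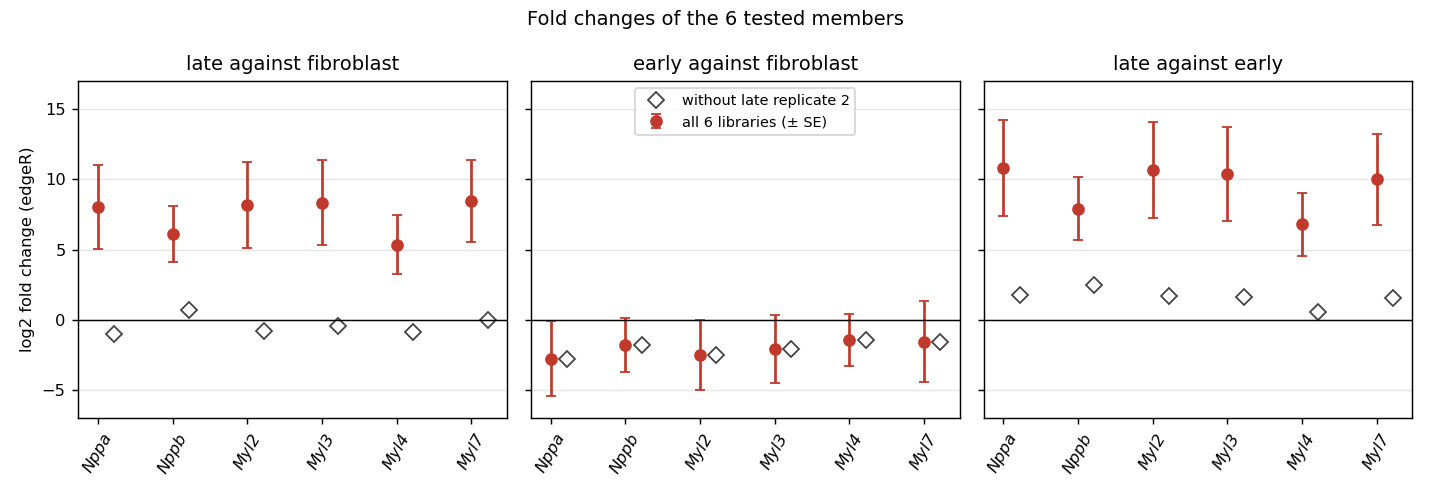
The 3 panels show log2 fold changes of the 6 tested genes, with filled points for the fit to all 6 libraries (bars are SE) and open diamonds for the fit without late replicate 2. In late against fibroblast the filled points lie between 5.36 and 8.45 and the diamonds between -0.99 and 0.69.

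The comparison of early cells with fibroblasts asks whether chamber genes had changed by day 7. The 6 tested genes had lower fitted levels in early cells, with log2 fold changes between -2.78 (Nppa) and -1.44 (Myl4), and 0 were called by edgeR (adjusted p from 0.526 to 0.759). None had an unadjusted p under 0.05, where 29.8% of all genes tested did, and DESeq2 called 0, where it called 25.2% of all genes tested, 12.6% higher. Both fits share 1 estimate of spread per gene over all groups, which for these genes includes the gap between the late libraries. These tests therefore had little power, and the absence of calls does not show that the genes changed less than others. With only the groups compared, the edgeR adjusted p was 0.157 to 0.257 for the 5 genes tested. Of all genes tested, 1.53% were called in either direction, 0.695% higher and 0.833% lower, and the median log2 fold change was -1.92 over the 6 genes and 0.00 over all genes tested. Both early libraries lay below both fibroblast libraries for 3 of 6, Nppa, Nppb and Myl4, where 34.4% of all genes tested did, and above for 0 of 6, where 32.3% did. For Myl3 and Myl7 the sign turned without fibroblast replicate 2, with log2 fold changes of 0.05 and 0.44 (edgeR adjusted p of 1 and 0.986, from 0.123 to 1 over the 6 genes and all alternatives).

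The comparison of late with early cells covers the interval from day 7 to day 22. The log2 fold change was 10.82 ± 3.42 for Nppa, 7.90 ± 2.24 for Nppb, 10.65 ± 3.42 for Myl2, 10.40 ± 3.33 for Myl3, 6.80 ± 2.26 for Myl4 and 10.002 ± 3.22 for Myl7 (SE, 2 libraries per group). Here edgeR called 0 of 6 (adjusted p from 0.399 to 0.434, with 6 of 6 at an unadjusted p under 0.05) and 0.00% of all genes tested. Of all genes tested, 1709 or 10.2% had an unadjusted p under 0.05. DESeq2 called 6 of 6 higher (adjusted p from 3.84e-05 to 0.00102), where it called 5.61% of all genes tested in either direction and 4.75% higher. Both late libraries lay above both early libraries for 6 of 6, where 16.1% of all genes tested did and 17.6% lay below. Late replicate 1 by itself kept the direction, since without late replicate 2 the log2 fold change was 1.79 for Nppa, 2.48 for Nppb, 1.69 for Myl2, 1.62 for Myl3, 0.56 for Myl4 and 1.54 for Myl7, but none was called (edgeR adjusted p from 0.723 to 1). Without late replicate 1 the log2 fold changes of the 6 genes were 7.68 to 11.72. Sln, with 0 counts in both early libraries, entered that fit only through late replicate 2. Over all alternatives the adjusted p of the 6 genes ranged from 3.84e-05 to 1. The 3 comparisons share libraries and are not independent of each other.

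Between the late libraries the genes differed by unequal factors. Late replicate 2 exceeded late replicate 1 by a factor of 1047 for Nppa (exact 95% interval 737 to 1540, counting error only) and 997 for Myl2 (804 to 1252). The factor was 878 for Myl3 (710 to 1099), 711 for Myl7 (415 to 1335) and 634 for Sln (248 to 2329). It was smaller for Myl4, at 149 (117 to 194), and for Nppb, at 85.3 (62.5 to 119). All 7 were past 4-fold, where 9.24% of all genes tested were over 4-fold higher in late replicate 2. None were over 4-fold lower, where 4.55% of all genes tested were. With 1 library on each side there is no test. Between the fibroblast libraries, replicate 2 exceeded replicate 1 over 4-fold for 4 of the 7 (Myl2 7.89, Myl3 7.59, Myl7 7.01 and Nppa 5.89), where 2.52% of all genes tested were higher and 3.09% lower by that much. Between the early libraries 0 of 6 genes with counts passed 4-fold, where 7.24% were higher and 4.01% lower in replicate 2.

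Heart muscle genes outside the chamber set differed between the late libraries by factors like those of Nppa, Sln, Myl2, Myl3 and Myl7. Over 12 cardiomyocyte markers the median factor was 588, from 208 to 1175, with 984 for Myh6 (adult alpha myosin heavy chain), 601 for Tnni3 (cardiac troponin I) and 388 for Tnnt2 (cardiac troponin T). Pln, phospholamban, which like sarcolipin inhibits SERCA, stood at 811 and the pump gene Atp2a2 at 27.4. Among all genes tested, 9.24% were over 4-fold higher in late replicate 2. The other atrial genes were divided, with 6 of 12 that much higher and a median factor of 50.6. Of these, Bmp10, a growth factor of the atria and early trabeculae, differed by a factor of 638 and Kcnj5, a subunit of the atrial acetylcholine-gated potassium channel, by 354, both chosen after their values were seen. Pam, an enzyme abundant in atrial granules, stood at 1031 CPM in late replicate 2 against 587 in late replicate 1, and Dkk3 at 93.2 against 56.0 CPM. Of 9 other ventricular genes 5 were over 4-fold higher, with Myh7, beta myosin heavy chain, at a factor of 136 and Fhl2 at 31.0. Irx4, a ventricle-restricted homeobox factor named after its values were seen, had a factor of 117.

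**Figure D3:**
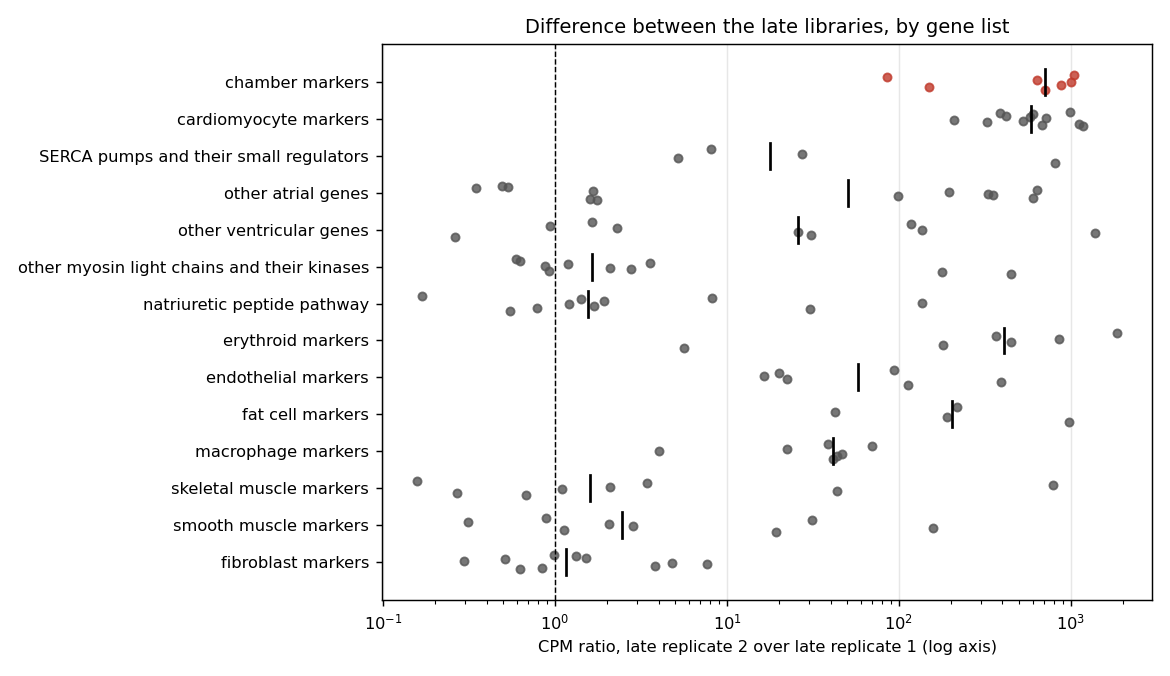
Each point is 1 gene, placed by the ratio of its CPM in late replicate 2 to that in late replicate 1 on a log axis, with 1 row per gene list and a black bar at the median of each list. Genes with 0 counts in 1 or both of these libraries are left out. The conduction system, epicardial and keratinocyte lists are not drawn. The chamber markers in red lie between 85.3 and 1047, and all but Myl4 and Nppb fall within the range of the cardiomyocyte markers, 208 to 1175.

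Late replicate 2 also held more RNA of markers of several other cell types. Of all genes tested, 9.24% were over 4-fold higher in it than in late replicate 1. Erythroid markers were over 4-fold higher for 6 of 6, with a summed level of 1043 CPM in late replicate 2 and 1.46 in late replicate 1, against 0.668 and 0.663 in early cells and 0.470 and 2.91 in fibroblasts. Endothelial markers were over 4-fold higher for 6 of 6 with counts in both late libraries (summed 709 CPM in late replicate 2, 23.7 in late replicate 1, 1.74 and 2.37 in early cells, 6.82 and 11.8 in fibroblasts), and the seventh, Emcn, had 0 counts in late replicate 1. Fat cell markers were so for 4 of 4 with counts in both (summed 604 CPM in late replicate 2, 0.875 in late replicate 1, 0.223 and 0.331 in early cells, 4.94 and 12.1 in fibroblasts). Of that sum in late replicate 2, Cd36, a fatty acid transporter also abundant in heart muscle and endothelium, gave 572 CPM, and Plin1, Adipoq and Cidec stood at 15.9, 9.04 and 7.08 CPM. Macrophage markers were so for 7 of 7 (summed 100.6 CPM in late replicate 2, 4.08 in late replicate 1, 4.23 and 10.7 in early cells), and were highest in fibroblasts, at 236 and 1018 CPM. Fibroblast markers were over 4-fold higher in 2 of 10, and their sum was 3254 CPM in late replicate 2, against 2715 in late replicate 1. Further lists were mixed, with smooth muscle markers over 4-fold higher in 3 of 8 (median factor 2.45) and conduction system markers in 2 of 6 (1.35). Epicardial and mesothelial markers were so in 3 of 5 (7.05), and keratinocyte markers in 1 of 4 with counts in both (1.37). Skeletal muscle markers were over 4-fold higher in 2 of 8 with counts in both, with sums of 1508 CPM in late replicate 2 and 31.6 in late replicate 1, against 44.6 and 35.4 in early cells and 8.70 and 12.2 in fibroblasts. Of the 16 listed, Myod1, Myog and Tnnc2 had 0 counts in all 6 libraries and Myf5 at most 1, while Ckm (1415 CPM in late replicate 2) and Acta1 (85.6 CPM) are also expressed in heart. Tnni2, fast skeletal troponin I, had 129 counts in late replicate 2 and 2 in late replicate 1, and Pax7, a muscle stem cell factor, had 10 and 43 counts in those libraries, 321 and 141 in early cells and 0 and 0 in fibroblasts. These single genes of the fat and skeletal lists, other than Ckm and Acta1, were named after their values were seen. The part of these cell types in the chamber gene values was not tested.

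The low counts of the chamber genes in the other 5 libraries differed by gene. Each was expressed as a percent of its level in late replicate 2. In fibroblast replicate 2 the percent was 0.322 for Nppa, 0.307 for Myl2, 0.270 for Myl3 and 0.244 for Myl7, and for the cardiomyocyte markers the median was 0.261 (Myh6 0.248, Tnnt2 0.266). In late replicate 1 it was 0.0956 for Nppa, 0.100 for Myl2, 0.114 for Myl3 and 0.141 for Myl7, with 0.102 for Myh6 and a median of 0.170 for the 12 markers. In fibroblast replicate 1 it was 0.0546, 0.0389, 0.0356 and 0.0349 for the same 4 genes in that order, with 0.0308 for Myh6. Early replicate 1 had Nppa at 0.0198, Myl2 at 0.0400, Myl3 at 0.0358 and Myl7 at 0.0463, and early replicate 2 had them at 0.0350, 0.0219, 0.0380 and 0.0492 in that order, on 4 to 31 counts each. In relative terms the 4 genes were closest to one another in fibroblast replicate 2 and spread more widely in the early libraries. The counting intervals of the 4 overlapped in each early library, so that wider spread is not separated from counting error. The 12 cardiomyocyte markers spread too. Ldb3, a Z-disc protein, was at 1.54% in fibroblast replicate 2 and 0.857% in fibroblast replicate 1. In late replicate 1 the calcium release channel gene Ryr2 was at 0.481%, Ldb3 at 0.309%, Tnnt2 at 0.258% and the cardiac actin gene Actc1 at 0.237%. Ryr2, Ldb3 and Actc1 were named after their values were seen. Hbb-bs, adult beta-globin of red blood cells, was at 0.298% of its late replicate 2 level in fibroblast replicate 2, 0.117% in late replicate 1 and 0.0411% in fibroblast replicate 1. Whether RNA or reads of 1 library entered another was not tested.

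Nppb and Myl4 stood at higher percents than the other chamber genes in most libraries, at or above the highest cardiomyocyte markers in some. In late replicate 1 Nppb was at 1.17% of its late replicate 2 level (exact 95% interval 0.837 to 1.60) and Myl4 at 0.669% (0.515 to 0.855), against 0.102% for Myh6 (0.0937 to 0.110) and 0.481% for Ryr2 (0.405 to 0.568), whose interval overlaps that of Myl4. In fibroblast replicate 1 Nppb was at 0.638% (0.420 to 0.929) and Myl4 at 0.775% (0.624 to 0.951), against 0.0308% for Myh6 (0.0270 to 0.0351) and 0.857% for Ldb3 (0.727 to 1.003), whose interval overlaps both. Early replicate 1 had Nppb at 0.313% (0.150 to 0.577) and Myl4 at 0.324% (0.217 to 0.466), against 0.0230% for Myh6 (0.0192 to 0.0273), the lowest of the 12 markers in both early libraries, and 0.0953% for Ldb3 (0.0507 to 0.163), the highest there. In early replicate 2, Nppb rested on 3 counts at 0.0999% (0.0206 to 0.292), while Myl4 was at 0.582% (0.430 to 0.769). The intervals cover counting error only and do not measure variation between cultures. Also in early replicate 2, Tnnt2 stood at 35.9 CPM and 0.612% and Tnni3 at 0.196%, against 2.67 CPM and 0.0456% for Tnnt2 and 0.0544% for Tnni3 in early replicate 1. Sln had at most 4 counts in each of the 5 libraries, so its percents, up to 0.158 in late replicate 1 (0.0429 to 0.404), do not separate it from either set.

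**Figure D4:**
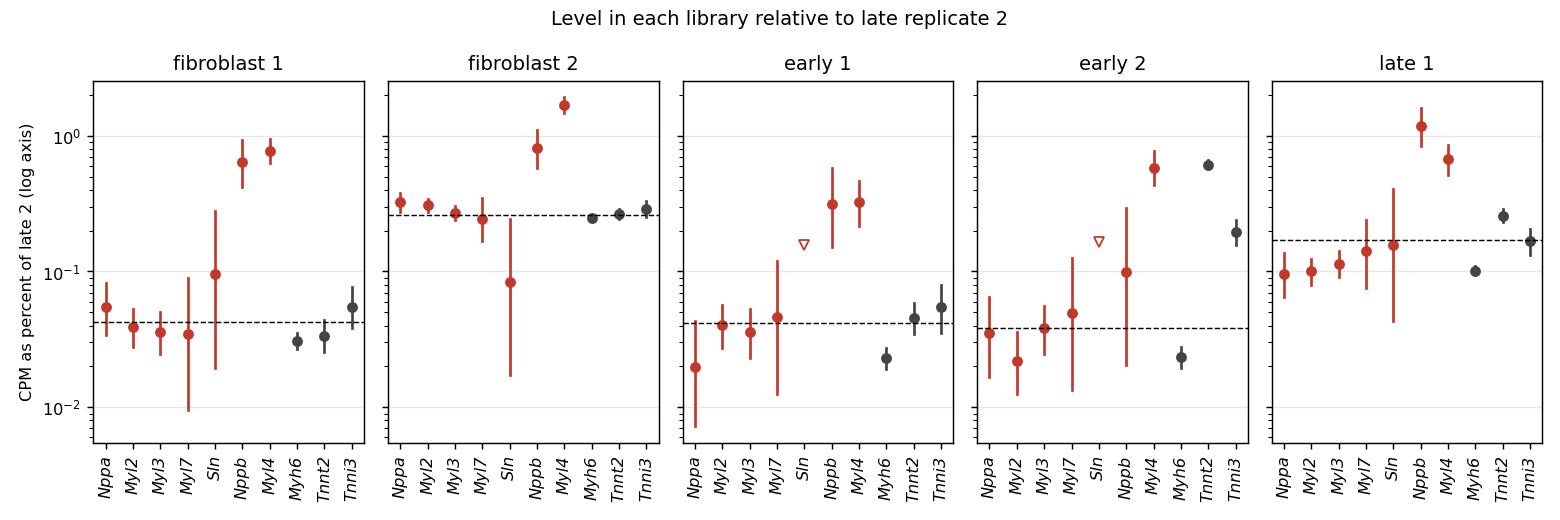
Each panel is 1 of the 5 other libraries and shows the CPM of a gene as a percent of its CPM in late replicate 2 on a log axis, with exact 95% counting intervals, chamber genes in red and 3 cardiomyocyte markers in grey. The dashed line is the median of 12 cardiomyocyte markers, and open triangles are upper limits for 0 counts. Myl4 lies above the line in all 5 panels, while Nppa, Myl2 and Myl3 lie below it in late replicate 1, at 0.0956% to 0.114% against 0.170%.

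The balance of atrial and ventricular partners was read as shares of counts. The atrial share of the regulatory light chains, Myl7 over Myl7 and Myl2, was 9.09% in fibroblast replicate 1 (exact Clopper-Pearson 95% interval 2.53 to 21.7), 8.16% in fibroblast replicate 2 (5.65 to 11.3), 11.4% and 20% in the early libraries (3.20 to 26.7 and 5.73 to 43.7), 13.5% in late replicate 1 (7.41 to 22.04) and 10.04% in late replicate 2 (9.88 to 10.2). All intervals overlapped that of late replicate 2, so no difference in this share was detectable at this depth. The atrial share of the essential light chains, Myl4 over Myl4 and Myl3, was 73.6% and 44.2% in fibroblasts, 53.7% and 66.2% in early cells, 43.0% in late replicate 1 (34.9 to 51.3) and 11.4% in late replicate 2 (11.2 to 11.5). Late replicate 2 was the lowest in this share, and no other library's interval reached it. An excess of the ventricular Myl3 was not particular to it. By counts Myl3 also exceeded Myl4 in fibroblast replicate 2 (286 against 227) and late replicate 1 (85 against 64). Per exon length, Myl4 exceeded Myl3 only in fibroblast replicate 1. Nppa made up 44.9% and 79.1% of the summed counts of Nppa and Nppb in fibroblasts (30.7 to 59.8 and 72.6 to 84.7), 37.5% and 76.9% in early cells (15.2 to 64.6 and 46.2 to 94.96), 43.7% in late replicate 1 (31.9 to 56.0) and 90.5% in late replicate 2 (90.2 to 90.7). Early replicate 2, with 10 and 3 counts, was not separated from late replicate 2 at this depth. The Nppa shares carry the uncertainty of its exon overlap with Gm13054. All these shares compare libraries and have no test of the stages.

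**Figure D5:**
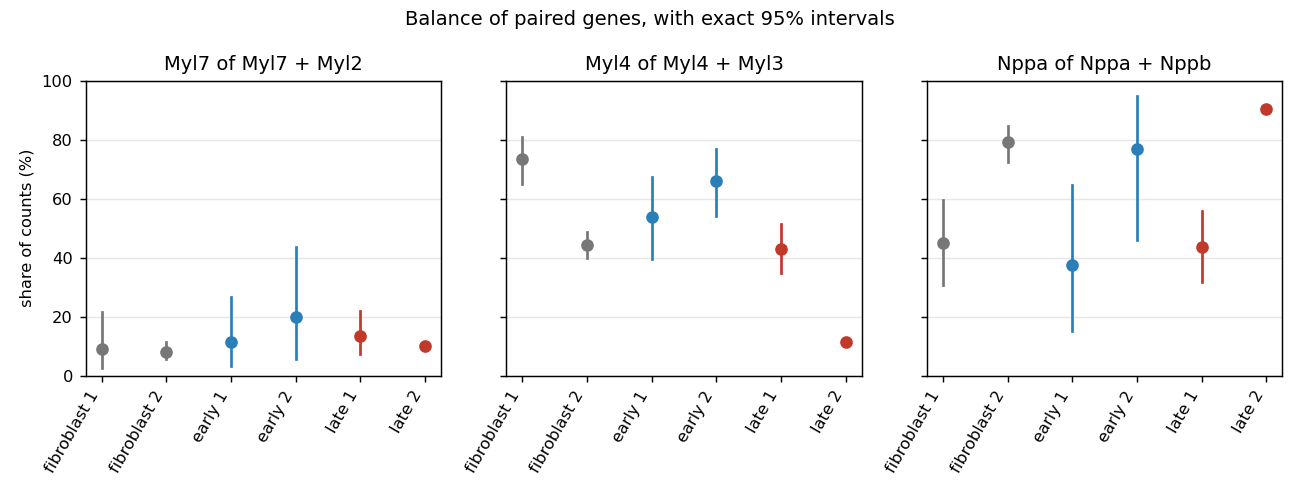
The 3 panels give the share of counts of the first gene in each pair, in percent, for each library in the order of days 0, 7 and 22, with exact 95% counting intervals. The share of Myl7 stays between 8.16% and 20%, that of Myl4 is lowest in late replicate 2 at 11.4%, and that of Nppa is 90.5% there, within the wide interval of early replicate 2.

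Profiles over the 6 libraries use the same values as the percents above and restate them for pairs of genes. Measured as the root mean square difference of centred log2 CPM, the 6 pairs among Nppa, Myl2, Myl3 and Myl7 lay between 0.32 and 0.59, and their 8 pairs with Nppb or Myl4 between 1.20 and 1.503. Nppb and Myl4 lay 0.90 apart. By the same measure the genes closest to Nppa were Pln (0.27), Nrap (0.29) and Myoz2 (0.32). Mb (0.19), Hbb-bs (0.24) and Cox6a2 (0.25) were closest to Myl2, Ckmt2 (0.21), Csrp3 (0.22) and Mb (0.22) to Myl3, and Smyd1 (0.17), Hrc (0.20) and Csrp3 (0.22) to Myl7. For Myl4 they were Synpo2l (0.32), Chchd10 (0.37) and Rcsd1 (0.38), and for Nppb Slc28a2 (0.45), Cited4 (0.50) and Myh14 (0.50). All these profiles share the single high value of late replicate 2.

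The natriuretic peptide pathway around Nppa and Nppb was read from a list of 10 genes, all tested. In late cells against fibroblasts edgeR called 0 of 10, with 4 at an unadjusted p under 0.05, and DESeq2 called 3 higher and 3 lower. Over all genes tested the shares were 32.5% at an unadjusted p under 0.05 and 28.1% called by DESeq2. The median log2 fold change was -0.60. In early cells against fibroblasts edgeR also called 0, with 5 at an unadjusted p under 0.05 and 2 higher and 3 lower by DESeq2, against 29.8% and 25.2% of all genes tested. For late against early cells edgeR called 0, with 3 at an unadjusted p under 0.05 and 2 higher by DESeq2, against 10.2% and 5.61% of all genes tested. Between the late libraries 3 of the 10 were over 4-fold higher in late replicate 2, where 9.24% of all genes tested were. The median factor of the 10 was 1.55. Npr1, the receptor of ANP and BNP, was at 4.29 and 34.96 CPM in late cells, 3.83 and 0.757 in early cells and 0.168 and 0.265 in fibroblasts (late against fibroblast log2 fold change 6.47 ± 1.49, edgeR adjusted p = 0.0737, and 3.68e-06 to 0.383 over the alternatives). It passed without late replicate 1 (edgeR adjusted p = 0.0456) and with DESeq2. Corin, the protease that cleaves the ANP precursor, was at 0.834 and 114 CPM in late cells and 2.12 and 0.559 in fibroblasts. These 2 were named after their values were seen. Npr2, the receptor of the related peptide CNP, was at 36.4 and 51.4 CPM in late cells, against 187 and 214 in fibroblasts (log2 fold change -2.19 ± 0.67, edgeR adjusted p = 0.104, and 0.00963 to 0.505 over the alternatives). It passed with DESeq2 and, in edgeR, with only the groups compared (adjusted p = 0.0325) and without early replicate 1 (adjusted p = 0.0355) or early replicate 2 (0.0309). Furin was at 160 and 193 CPM in late cells and 258 and 234 in fibroblasts.

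Of 10 other light chain and kinase genes with counts in both late libraries, 2 were over 4-fold higher in late replicate 2. The share over all genes tested was 9.24%. The median factor of the 10 was 1.64. Of the 12 listed 9 were tested, and edgeR called 0 in each comparison. At an unadjusted p under 0.05 there were 4 for late against fibroblast (32.5% of all genes tested), 5 for early against fibroblast (29.8%) and 2 for late against early cells (10.2%). DESeq2 called 1 higher and 1 lower (28.1% of all genes tested), 3 lower (25.2%), and 1 higher (5.61%) in the same comparisons. Myl6, the essential light chain of smooth and non-muscle myosin, was at 326 CPM in late replicate 2 and 553 in late replicate 1, against 592 and 769 in fibroblasts. Myl12a, a non-muscle regulatory light chain, was at 499 and 591 CPM in late cells, against 720 and 888 in fibroblasts. Mylk3, the cardiac light chain kinase, named after its values were seen, was at 414 CPM in late replicate 2 and 2.33 in late replicate 1, against 2.38 and 6.38 in fibroblasts. Of 5 matched genes of SERCA pumps and their regulators, 3 were tested and edgeR called 0 in each comparison (1, 0 and 1 at an unadjusted p under 0.05, against 32.5%, 29.8% and 10.2% of all genes tested), while DESeq2 called 2 higher for late against fibroblast (28.1% of all genes tested), 0 for early against fibroblast (25.2%) and 1 higher for late against early cells (5.61%). Atp2a2 stood at 363 and 9952 CPM in late cells, 512 and 720 in early cells and 472 and 530 in fibroblasts. Among 8 tested genes of the other ventricular list, Hand1, a heart and extraembryonic factor, rose in late cells over fibroblasts (22.3 and 5.84 CPM, against 0.101 and 0.0588, log2 fold change 7.39 ± 1.02, edgeR adjusted p = 0.0485), and its level was lower in late replicate 2 than in late replicate 1. It was the only 1 of the 8 called there, where 0.641% of all genes tested were called higher. In the other comparisons edgeR called 0 of this list. At an unadjusted p under 0.05 there were 4, 2 and 6 in the same order, against 32.5%, 29.8% and 10.2% of all genes tested. DESeq2 called 3 higher for late against fibroblast (28.1% of all genes tested), 1 lower for early against fibroblast (25.2%) and 5 higher for late against early cells (5.61%). Hand1 did not pass without late replicate 2 (edgeR adjusted p = 0.0704), without either early library (0.0530 and 0.0504), without either fibroblast library (0.279 and 0.309) or with a replicate block (0.0724). Its adjusted p ranged from 3.23e-10 to 0.309 over the alternatives. Of the 7 tested genes of the other atrial list, edgeR called 0 in each comparison, with 4, 5 and 2 at an unadjusted p under 0.05 in the same order, against 32.5%, 29.8% and 10.2% of all genes tested. DESeq2 called 2 higher and 1 lower for late against fibroblast (28.1% of all genes tested), 2 higher and 2 lower for early against fibroblast (25.2%), and 2 higher for late against early cells (5.61%).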

How the data were processed

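The authors deposited raw read counts per Ensembl gene for 6 libraries. Per the labels' protocols, cDNA was made after poly(A) selection. Per the submitters' processing notes, the tools included STAR 2.5.2b, Trimmomatic 0.36, Subread 1.5.2 and featureCounts, with GRCm38 as build. The annotation release is not given in the sources used here, nor are the strand setting and the handling of multi-mapping reads, so genes overlapped by others carry uncertain counts. Symbols, positions and exon lengths came from GENCODE M21 on GRCm38. Of 142 listed symbols 141 matched, and Strit1 did not.

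In R 4.3.3, edgeR 4.0.16 kept 16688 genes by its default filter, scaled libraries by TMM and fitted a robust quasi-likelihood model to 3 groups over 6 libraries without a block (3 residual degrees of freedom, common biological coefficient of variation 48.6%). Calls used a Benjamini-Hochberg adjusted p under 0.05 over all genes, and standard errors came from the fold change and F statistic. DESeq2 1.42.0 was an alternative. The fits were tested on simulated data with the same spread in all groups, smaller than in these libraries. That test therefore does not show how the fits behave where the late libraries differ this much. The members and gene lists were chosen with earlier results of these data known. Named genes were the 7 members, called genes of a list (up to 4) or otherwise its 2 highest in any library, Tnnt2, Myh6 and Tnni3, and the 3 genes closest to each member. For lists of other cell types this rule was not kept throughout, and counts and sums were given instead. Shox2 of the conduction system list was called lower in late and in early cells against fibroblasts (edgeR adjusted p = 0.0465 and 0.0408). S100a4 of the fibroblast list was called lower too (edgeR adjusted p = 0.0379 and 0.0415). Intervals on counts are exact at 95% and, like the floor of 3 counts, cover counting error only. PCR copies are not independent molecules. Early and late columns were matched by name (the abbreviation for induced progenitors as late, the fibroblast abbreviation with a letter c as early). If that reading were wrong, early and late values would change places.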

Additional observations from a re-analysis of the deposited data

How the results depend on the processing

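For late against fibroblast cells (237 genes in the main analysis), the count of called genes was 2495 without the expression filter, 4683 with DESeq2, 1016 with only the groups compared, 9 with a replicate block and 0 without late replicate 2 and fibroblast replicate 2 together, a setting chosen after seeing the data. For early against fibroblast cells (255) it was 514 with total counts, 2337 without the filter, 4201 with DESeq2, 1469 with only the groups compared, 26 with a replicate block and 0 without those 2 libraries. For late against early cells (0) it was 276 without the filter and 936 with DESeq2. Leaving out 1 library gave 0 to 1058, 0 to 823 and 0 to 602 genes in the 3 comparisons. The chamber genes called were 6 with DESeq2 in each of the late comparisons, and 0 to 7 when 1 library was left out, with 7 only without late replicate 1; for early against fibroblast cells the count was 0 throughout. The replicate block called 0 chamber genes (edgeR adjusted p of 0.169 to 0.260, 0.565 to 0.856 and 0.589 to 0.662 in the 3 comparisons). Calls were 107 higher and 130 lower for late against fibroblast cells, and 180 higher and 120 lower with total counts, which moved the median log2 fold change of all genes to 0.27. A library left alone in its group is assumed to vary like the other groups. Myl7 could not be tested for early against fibroblast with only those groups. The labels share replicate numbers, but deviations of same-numbered libraries correlated at only 0.12, 0.24 and 0.09 between groups, so the numbers were not taken to pair libraries.

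Directions turned without late replicate 2 for late against fibroblast (log2 fold change -0.99 for Nppa, -0.79 for Myl2, -0.43 for Myl3, -0.88 for Myl4, -0.0075 for Myl7), without fibroblast replicate 2 for early against fibroblast (0.05 for Myl3, 0.44 for Myl7), and without both libraries for Myl4 in late (-0.11) and for Myl3 and Myl7 in early cells (0.10 and 0.48). The cause was not tested. With 1 library left out, the largest log2 fold changes for late against fibroblast were 9.81 for Nppa, 10.30 for Myl2, 10.43 for Myl3, 6.26 for Myl4 and 10.42 for Myl7, and the lowest for early against fibroblast were -2.88 for Myl3 and -2.34 for Myl7. Among the refitted values of the 6 tested genes, 199 kept direction and side of the threshold, 24 newly passed it and 10 turned. With total counts the ratio of late replicate 2 to late replicate 1 was 744 for Myl2, 655 for Myl3 and 112 for Myl4.

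Per exon length, the share of Myl7 was 24.8% and 22.7% in fibroblasts, 29.9% and 45.2% in early cells and 34.1% and 26.9% in late cells, and that of Myl4 was 55.1% and 25.9%, 33.8% and 46.4%, and 24.9% and 5.35% in the same order, since Myl7 is shorter than Myl2 and the union of Myl4 exons longer than that of Myl3. Outside late replicate 2 the chamber genes had 0 to 360 counts per library, which limits ratios and shares there.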
